A study of Mus musculus with 6 samples.

Results

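The TAM receptor tyrosine kinases Tyro3, Axl and Mertk, their ligands Gas6 and Pros1, and 5 further genes of apoptotic cell uptake were followed in tubular cells with a hairpin against Glis2 or a control hairpin. The group comprised every probe annotated with the symbol Axl, Tyro3, Mertk, Gas6, Pros1, Megf10, Mfge8, Havcr1, Scarb1 or Gulp1, which gave 17 probes of the 45281 on an Illumina mouse bead array and 10 of the 19057 genes with a probe. Axl and Megf10 were chosen by their log2 fold changes between the groups on these arrays, and the others were added with the same comparison already known. The differences of all 10 genes are therefore given as a description, without p-values.

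RNA came from immortalized proximal tubular cells of strain C56BL/6, on 6 arrays. The control group (Control, n = 3 arrays) carried a lentiviral short hairpin RNA against GFP, a sequence foreign to these cells, and the knockdown group (Glis2KD, n = 3 arrays) one against Glis2. Cells were harvested 7 days after infection, so both groups were infected and carried a hairpin. Effects of lowering Glis2 and other effects of that hairpin or of the infected population cannot be told apart. The labels do not say whether the 3 arrays of a group came from separate infections, so the spread between these arrays may be technical. The SDs below measure only that spread. The SEs are limma's, which draw each probe's spread towards that common to all probes.

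TAM receptors are activated by Gas6 and protein S, the product of Pros1, which bind phosphatidylserine exposed on dying cells and so bridge them to the engulfing cell. They are best known in macrophages, where they drive uptake of apoptotic cells and dampen inflammation, while Axl is also widely expressed in epithelial and mesenchymal cells. In the injured kidney, tubular epithelial cells can themselves become engulfing cells, for which the phosphatidylserine receptor Kim-1, the product of Havcr1, is the textbook example. Megf10 is a scavenger-type engulfment receptor and Gulp1 a cytosolic adaptor that links such receptors to the uptake machinery. Mfge8 is a secreted bridge between phosphatidylserine and integrins, and Scarb1, the HDL receptor, also binds phosphatidylserine.

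The 300 bases around the RefSeq start of the 3 TAM receptor genes are shown because Axl was several-fold lower in the knockdown whereas its paralogs Tyro3 and Mertk were at or near background (assembly GRCm38.p6, 5′ to 3′ on the gene's strand, 250 bases before and 50 after the start). They lie at chr7:25788684-25788983 (minus strand) for Axl, chr2:119799264-119799563 (plus strand) for Tyro3 and chr2:128698665-128698964 (plus strand) for Mertk. Capitals mark matches, on either strand, to the GC box GGGCGG, the AP-1 site TGANTCA, the TEAD site GGAATG and the Gli core TGGGTGG.
Axl: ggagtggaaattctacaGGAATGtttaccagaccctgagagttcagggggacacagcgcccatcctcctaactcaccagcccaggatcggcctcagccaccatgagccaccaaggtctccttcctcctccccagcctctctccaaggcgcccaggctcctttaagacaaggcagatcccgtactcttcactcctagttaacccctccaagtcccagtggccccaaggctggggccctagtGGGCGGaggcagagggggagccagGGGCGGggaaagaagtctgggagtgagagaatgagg
Tyro3: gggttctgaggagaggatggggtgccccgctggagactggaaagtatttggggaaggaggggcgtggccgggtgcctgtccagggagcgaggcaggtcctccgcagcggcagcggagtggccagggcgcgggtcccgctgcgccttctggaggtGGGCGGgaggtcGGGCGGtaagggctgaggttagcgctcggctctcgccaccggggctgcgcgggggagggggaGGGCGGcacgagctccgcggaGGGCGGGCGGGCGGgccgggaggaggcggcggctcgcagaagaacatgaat
Mertk: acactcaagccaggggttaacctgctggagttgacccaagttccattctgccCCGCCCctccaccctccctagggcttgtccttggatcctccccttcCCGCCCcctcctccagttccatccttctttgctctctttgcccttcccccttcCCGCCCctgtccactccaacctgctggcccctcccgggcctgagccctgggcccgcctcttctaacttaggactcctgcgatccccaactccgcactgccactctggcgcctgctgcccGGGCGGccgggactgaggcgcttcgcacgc
The Axl window held 2 GC boxes, the first 10 bases before the start, and 1 TEAD match 233 bases before it. Tyro3 held 6 GC boxes, of which the 3 nearest the start overlap one another, and Mertk held 4. No Gli core was found in any of the 10 windows searched, which covered 8 of the 10 genes. No window of Megf10 or Scarb1 was searched, so the result does not extend to them. The AP-1 letters occurred in 1 of the 3 Havcr1 windows. Over all 32851 promoter windows, 35.7% held the GC box, 7.81% the AP-1 site, 14.7% the TEAD site and 9.30% the Gli core. A match of letters is a description of the window and says nothing about binding.

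From the deposited values, the arrays share one distribution and still hold their background, and on each 40.8% of the probes exceeded the background limit of 137. This limit is the most frequent intensity, 113, plus 3 times the spread of the values below it, and a probe under it is called at background. Glis2 itself was lower in the knockdown. Its brighter probe, ILMN_1226316, read 278, 234 and 230 on the control arrays and 169, 161 and 176 on the knockdown arrays, and the groups did not overlap. The log2 fold change was -0.55 ± 0.089 (SE, n = 3 arrays per group) with limma's adjusted p = 7.16e-05, and the second probe, ILMN_2745305, had -0.36. With the most frequent intensity subtracted the values were -1.26 and -1.01, and the second probe no longer passed (limma's adjusted p = 0.179, the highest of its 13 alternative fits, of which 0.0033 was the lowest), so the size of the knockdown depends on how background is treated. Of the 10 proximal tubule markers measured, 3 were above the limit, namely Aqp1, Mme and Pax8. The defining transporters Slc34a1 and Slc5a2 and the endocytic receptor Lrp2 were at background on all 6 arrays. Aqp1 and Mme were lower in the knockdown, while Pax8 had a log2 fold change of -0.21 (limma's adjusted p = 0.102). The summed intensity of the 10 markers lay between 11632 and 13264 in control and between 1963 and 2264 in knockdown arrays. Most of that difference was Aqp1 alone, which read 9162 to 10538 in control and 289 to 480 in knockdown arrays.

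Of the 10 genes, 5 had a probe whose mean exceeded the background limit, namely Axl, Tyro3, Megf10, Mfge8 and Scarb1. Axl and Megf10 were several-fold lower with the Glis2 hairpin, Mfge8 had overlapping groups, and Tyro3 and Scarb1 lay close to the limit. Mertk, Gas6, Pros1, Havcr1 and Gulp1 stayed at background on all 6 arrays. In the fit across all probes, 4 of the 17 probes passed the adjusted threshold of 0.05, 3 lower and 1 higher. Among all 45281 probes 15.6% passed it, 7.76% lower and 7.84% higher, and among the 18033 probes above the limit 37.6%. The groups did not overlap on 8 of the 17 probes, of which 3 were under the limit on all arrays, against 26.3% of all probes. Because that contrast chose the genes, nothing is read from these counts. The median log2 fold change of the 17 probes was 0.05, against 0.000258 over all probes. Of the 17 probes, 10 were under the limit on all 6 arrays. The median is the value of 1 of these, Megf10 ILMN_1214887, and does not describe the detected genes.

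**Figure D1:**
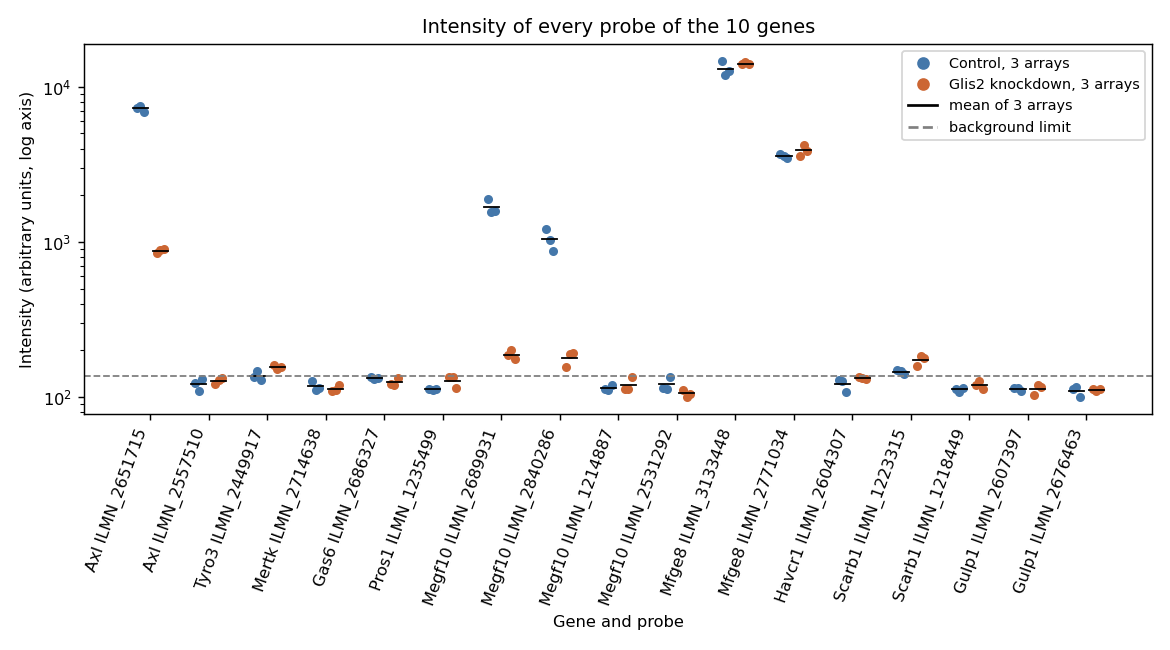
Intensity on a log axis for all 17 probes of the 10 genes, with 3 control arrays in blue, 3 knockdown arrays in orange, black bars for the means and a dashed line at the background limit. Axl ILMN_2651715 and both bright Megf10 probes separate widely between the groups, the Mfge8 probes do not, and 10 probes lie under the limit on every array.

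Axl is the TAM receptor that binds Gas6 most tightly. Probe ILMN_2651715 read 7339, 7496 and 6929 on the control arrays and 849, 881 and 903 on the knockdown arrays. All 3 knockdown values lay far below every control value, and neither group spread by much. The means were 7255 ± 293 and 878 ± 27.0 (SD, n = 3), an 8.27-fold difference with a log2 fold change of -3.05 ± 0.081 (SE) and a 95% interval from -3.22 to -2.88. From the lowest log2 fold change upwards it ranked 12 among the 18033 probes above the limit. Axl was chosen by this difference, so the rank is a description only. The Axl signal was still well above the limit on all knockdown arrays. In RNA from a whole culture, fewer cells with the transcript and less transcript per cell cannot be told apart.

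The second Axl probe, ILMN_2557510, read 123, 110 and 130 in control and 121, 128 and 133 in knockdown arrays, under the limit on all of them. It was annotated to a different transcript record (AK033237 in place of NM_009465) and gave no usable level in either group. The fall of Axl therefore rests on 1 probe. Averaging both probes gave a log2 fold change of -1.49, which mixes a measured probe with one at background. Across the 6 fits that each leave out 1 array, the bright probe ranged from -3.08 to -3.02.

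Tyro3, the TAM receptor best known from the nervous system, was barely detected. Its only probe, ILMN_2449917, read 135, 146 and 128 in control and 161, 151 and 156 in knockdown arrays. The groups did not overlap, but only 1 of the 3 control arrays exceeded the limit. The log2 fold change was 0.20 ± 0.083 (SE, n = 3 per group), with an interval from 0.02 to 0.37, and it did not pass the adjusted threshold. Mertk, the main TAM receptor of engulfing macrophages, read 127, 111 and 114 in control and 109, 111 and 119 in knockdown arrays, all at background with overlapping groups. Within the TAM family, Axl was thus the member with a probe that gave a clear signal, and Mertk gave no level above background in either group. Tyro3 and Mertk had 1 probe each, and a transcript outside its reach would not have been seen.

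Both ligands were at background. Gas6 read 135, 130 and 134 in control and 122, 119 and 132 in knockdown arrays, and the groups overlapped. Pros1 read 112, 111 and 113 against 135, 134 and 114. The Pros1 groups did not overlap, yet every value lay under the limit, so no level or fold is given. Each ligand had 1 probe, and a transcript outside its reach would not have been seen.

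Megf10 is a receptor for apoptotic cells that astrocytes use in particular. Probe ILMN_2689931 read 1896, 1562 and 1587 in control and 187, 200 and 176 in knockdown arrays. Probe ILMN_2840286 read 1203, 1034 and 876 against 155, 190 and 192. On both probes every knockdown array lay below every control array, and the knockdown values came close to the background limit. The log2 fold changes were -3.16 ± 0.091 and -2.53 ± 0.11 (SE, n = 3 per group), or 8.95-fold and 5.78-fold. With the most frequent intensity subtracted they became 21.2-fold and 14.4-fold, so the size of the fall depends on how background is treated. The remaining 2 probes, ILMN_1214887 and ILMN_2531292, were under the limit on all 6 arrays, although all 4 were annotated to the same transcript record.

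Mfge8, the bridge between phosphatidylserine and integrins, was abundant in both groups. Probe ILMN_3133448 read 14712, 11988 and 12660 in control and 13943, 14412 and 14004 in knockdown arrays. Probe ILMN_2771034 read 3666, 3584 and 3476 against 3597, 4234 and 3832. The groups overlapped on both probes, which were annotated to different Mfge8 transcript records. The log2 fold changes were 0.11 ± 0.088 and 0.12 ± 0.085 (SE, n = 3 per group), with intervals from -0.07 to 0.29 and from -0.06 to 0.29.

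Scarb1 was weakly detected. Probe ILMN_1223315 read 149, 147 and 142 in control and 160, 183 and 178 in knockdown arrays, all above the limit, with all knockdown values higher. Its log2 fold change was 0.25 ± 0.084 (SE, n = 3 per group), and it became 0.87 with the most frequent intensity subtracted. This probe passed the adjusted threshold in the fit but in only 4 of 13 other fits, and in 1 of the 6 that leave out an array, the one without knockdown replicate 1. The other Scarb1 probe, ILMN_1218449, was at background on all arrays. Havcr1, the tubular injury marker, read 128, 127 and 108 in control and 134, 132 and 131 in knockdown arrays, all under the limit, although the groups did not overlap. Both Gulp1 probes were also at background on all arrays. Over the 10 probes that were under the limit on all 6 arrays, intensities ranged from 99.8 to 135 and log2 fold changes from -0.19 to 0.18.

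**Figure D2:**
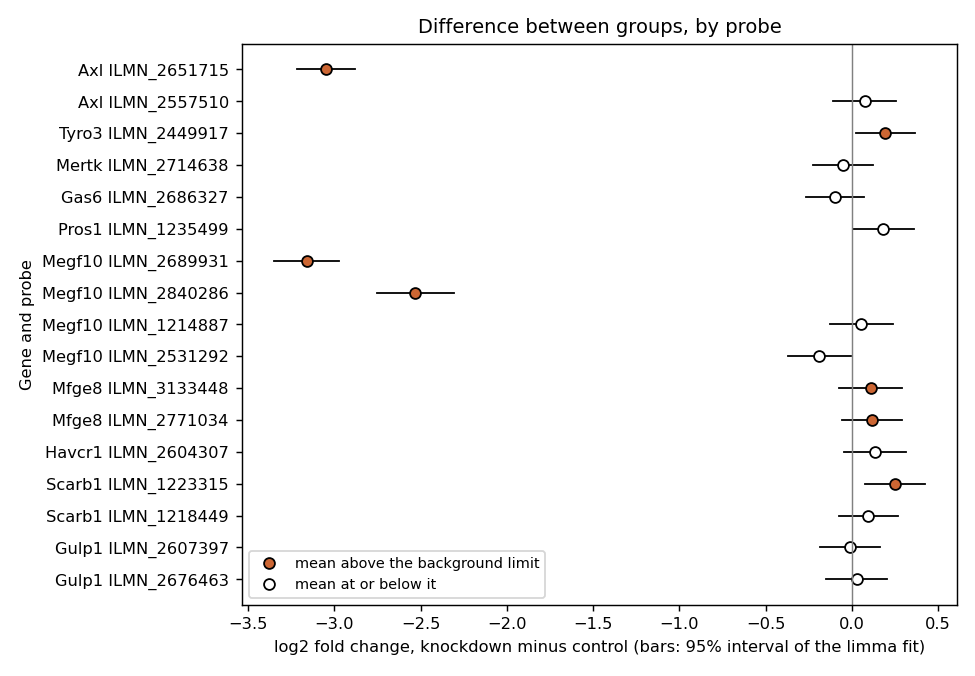
Log2 fold change of knockdown minus control for all 17 probes, with 95% intervals from the limma fit as bars. Filled points have a mean above the background limit, and only Axl ILMN_2651715 (-3.05) and 2 Megf10 probes (-3.16 and -2.53) lie far from 0.

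Defining macrophage markers were looked at because TAM receptors mark these cells. Of 9 measured, 2 were above the limit. Ptprc, Adgre1, Itgam, Lyz2, Fcgr1 and Tyrobp were at background on all 6 arrays. Csf1r had a log2 fold change of 0.44 (limma's adjusted p = 0.00249) and Cd14 one of -0.38 (limma's adjusted p = 0.00336). The summed intensity of the 9 markers was 1648 to 1810 in control and 1577 to 1693 in knockdown arrays. Of 8 fibroblast markers, Dcn was above the limit, with a log2 fold change of -0.98, and Col1a2 passed the threshold at 0.26 with 1 of 6 arrays above the limit. Of 6 endothelial markers none had a mean above it. The summed fibroblast intensity was 1072 to 1107 against 950 to 998, and the endothelial one 701 to 753 against 736 to 767. The part of these markers in the fall of Axl and Megf10 was not tested.

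Position on the chromosome was compared for the 10 genes, by the 25 nearest measured genes above background on each side in RefSeq order. Around Axl on chromosome 7, the 50 neighbours had a median log2 fold change of 0.19, and 7 of them passed the threshold as lower and 17 as higher. Relative to that median the Axl probe stood at -3.23. Around Megf10 on chromosome 18, the median was -0.35, with 27 neighbours lower and 5 higher. Of all genes above the limit, 21.5% were lower and 20.8% higher. Relative to its neighbours the brightest Megf10 probe stood at -2.81. Megf10 thus fell within a stretch where many genes were lower, and Axl within one where many were slightly higher. Axl and Megf10 were chosen by their log2 fold changes, so a place far below their neighbours follows from that choice. Mfge8, also on chromosome 7, had neighbours with a median of 0.27, of which 25 were higher and 1 lower, and relative to them its brighter probe stood at -0.16. The neighbours of Scarb1 on chromosome 5 had a median of 0.19, and relative to them its brighter probe, at 0.25, stood at 0.06. That probe lies close to the background limit and had 0.87 with the most frequent intensity subtracted, which was not done for its neighbours. The part of chromosome position in any of these differences was not tested.

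**Figure D3:**
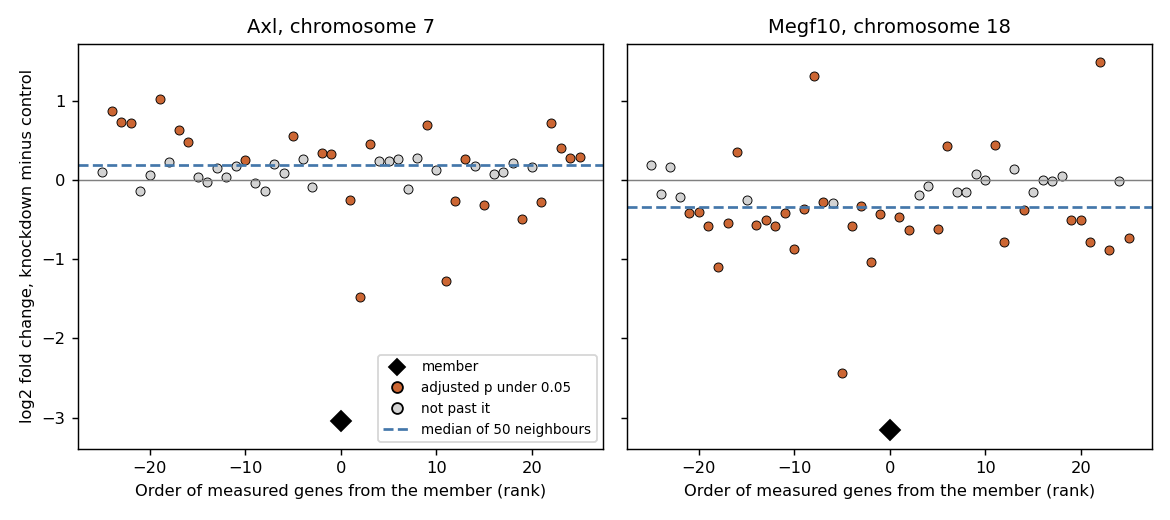
Log2 fold change of the 25 nearest measured genes on each side of Axl (left) and Megf10 (right), by order along the chromosome, with the member as a black diamond and the median of the 50 neighbours dashed. The medians are 0.19 around Axl and -0.35 around Megf10, and both members lie below every neighbour shown. Both were chosen by their log2 fold change in this comparison, so their low place follows from that choice.

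The genes whose 6 values ran closest to those of the bright Axl probe were found from the root mean square difference of log2 values, each taken relative to its control mean. They were Cp, the ferroxidase ceruloplasmin, at 0.085, and Glipr1 at 0.092. The next were Ctsc, the lysosomal protease cathepsin C, at 0.15, Mme, the brush-border endopeptidase neprilysin, at 0.19, and the pseudogene Speer6-ps1 at 0.20, whose probe may also detect near-identical copies. All 5 were several-fold lower in the knockdown with groups that did not overlap. Ceruloplasmin read 5222, 4793 and 4887 in control and 557, 638 and 679 in knockdown arrays. The knockdown values of Mme were all at background, so its fall, computed against the limit, was at least 6.19-fold. The choice fixes that these genes differ as Axl does, and with 2 groups it says nothing of shared control.

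**Figure D4:**
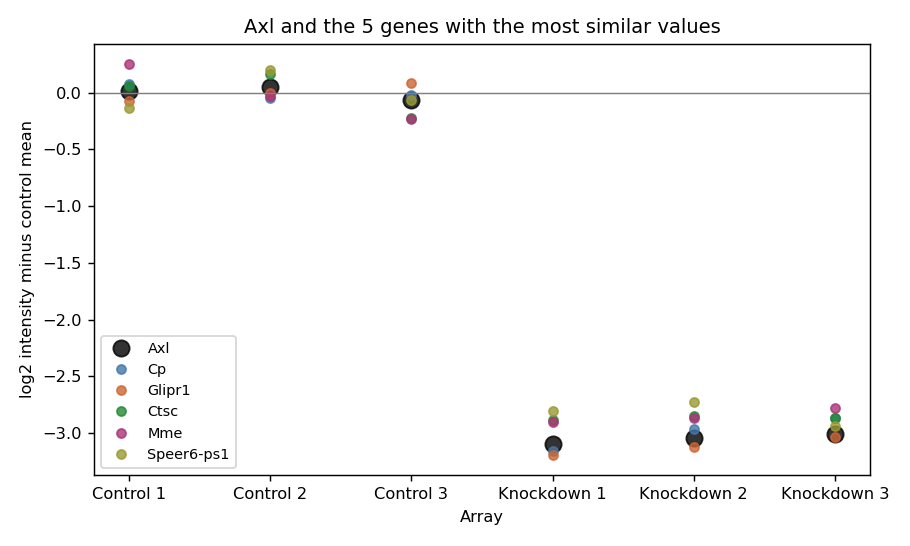
Log2 intensity minus the control mean on each of the 6 arrays for Axl ILMN_2651715 (large black points) and the 5 genes with the most similar values. The control values scatter around 0, and the knockdown values of all 6 genes lie far below every control value.

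Partners of these receptors were described from 4 lists, chosen with earlier results of these data known. Up to 4 genes per list were named by smallest p, so their adjusted p-values describe these arrays and are no independent evidence. Of all 9642 genes above the limit 42.3% passed the threshold and their median log2 fold change was -0.0055, and each list is read beside these values. Among 16 genes of TAM ligand processing and signalling, 12 were above the limit, and 3 rose, 2 fell and 11 did not pass. The median over the 12 was 0.06, and 41.7% of them passed the threshold. Pik3r1, the regulatory subunit of PI3 kinase, rose from 1194 ± 51.2 to 1999 ± 175 (SD, n = 3), a log2 fold change of 0.74 with limma's adjusted p = 9.55e-07. Socs3, a cytokine signalling suppressor that TAM receptors can induce, fell from 1171 ± 66.7 to 731 ± 26.3 (-0.68, limma's adjusted p = 1.63e-06). The protease Adam17, which sheds receptor ectodomains, fell from 1213 ± 66.0 to 832 ± 104 (-0.55, limma's adjusted p = 0.00011), and the kinase Src had 0.43. The other 2 Src probes, 1 of them above the limit, did not pass and had log2 fold changes of 0.05 and 0.14. On the probes used, the groups did not overlap for any of these 4 genes. With the most frequent intensity subtracted, limma's adjusted p rose to 0.0639 for Adam17 and 0.0698 for Src, and Src had 0.0522 after normexp correction. Over the 13 alternative fits these adjusted p-values by limma ran from 1.78e-05 to 0.0639 for Adam17 and from 0.000916 to 0.0698 for Src. Of the listed genes that serve the gamma-carboxylation of Gas6 and protein S, Ggcx had 0.0030 and Vkorc1 -0.05, and neither passed. Vkorc1l1 had 0.27 and passed the threshold (limma's adjusted p = 0.0213), though not after normexp correction.

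Of 28 other engulfment receptors and bridging proteins, 9 were above the limit, and 2 rose, 4 fell and 22 did not pass. Their median was -0.22 over those 9, of which 66.7% passed the threshold, against 42.3% of all genes above the limit. Itgb5, the integrin beta5 chain that pairs with alpha v to bind Mfge8, read 6108, 4552 and 5452 in control and 1827, 2058 and 2241 in knockdown arrays. It fell by 1.39 on the log2 scale (SE 0.10, n = 3 per group, limma's adjusted p = 6.95e-10), while its partner chain Itgav went from 488 ± 37.8 to 419 ± 40.4 and had -0.22 with limma's adjusted p = 0.121. Stab1, a scavenger receptor that binds phosphatidylserine, rose from 525 ± 12.7 to 1033 ± 42.6 (0.98, limma's adjusted p = 4.80e-09), by 1 probe of 3, the others being at background. Thbs1, the bridging protein thrombospondin 1, fell from 1376 ± 126 to 788 ± 75.1 (-0.80, limma's adjusted p = 7.34e-07). Lrp1, an endocytic receptor for calreticulin on dying cells, read 303, 272 and 223 in control and 177, 187 and 156 in knockdown arrays (-0.61, limma's adjusted p = 0.000114), and with the most frequent intensity subtracted its log2 fold change was larger, at -1.34, but no longer passed, with limma's adjusted p = 0.104, against 1.41e-05 at the lowest of its 13 alternative fits.

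Of 26 measured genes of the engulfment machinery and phagosome maturation, 23 were above the limit, and 3 rose, 4 fell and 19 did not pass. The median over the 23 was -0.03, and 30.4% of them passed the threshold. Wasl, the actin nucleation factor N-WASP, fell from 8130 ± 515 to 4399 ± 62.2 (-0.88, limma's adjusted p = 3.07e-08). Rab7, the GTPase of late phagosomes, went from 6748 ± 395 to 4194 ± 401 (-0.69, limma's adjusted p = 3.47e-06), and Pik3c3, the lipid kinase Vps34, had -0.52. Rab7 had 3 other probes, 2 of them above the limit and 1 past the threshold as lower, with log2 fold changes from -0.31 to -0.02. Rhog, which acts upstream of the Elmo and Dock1 module, rose from 603 ± 26.1 to 853 ± 68.3 (0.50, limma's adjusted p = 0.000141). Transcripts of the uptake machinery were thus detected in these cells. Among all genes above the limit 42.3% passed the threshold, so a majority not passing is not particular to this list.

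Of 16 measured find-me, eat-me and do-not-eat-me signals, 9 were above the limit, and 1 rose, 6 fell and 9 did not pass. Over the 9 above the limit the median was -0.39, and 77.8% of them passed the threshold, against 42.3% of all genes above the limit. Cx3cl1, a chemokine that dying cells release to attract phagocytes, read 913, 790 and 855 in control and 334, 375 and 313 in knockdown arrays. It fell by 1.33 on the log2 scale (SE 0.090, n = 3 per group, limma's adjusted p = 1.71e-10). Sphk1, which makes the attractant sphingosine 1-phosphate, fell from 4576 ± 218 to 2252 ± 21.5 (-1.02, limma's adjusted p = 2.41e-09), although its other probe above the limit did not pass. Cd47, the do-not-eat-me signal, fell from 1942 ± 24.4 to 1275 ± 67.7 (-0.61, limma's adjusted p = 6.02e-06), as did a second probe of it. Tmem30a, a subunit of the flippases that keep phosphatidylserine inside, went from 276 ± 10.9 to 183 ± 12.6 (-0.59, limma's adjusted p = 1.23e-05).

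**Figure D5:**
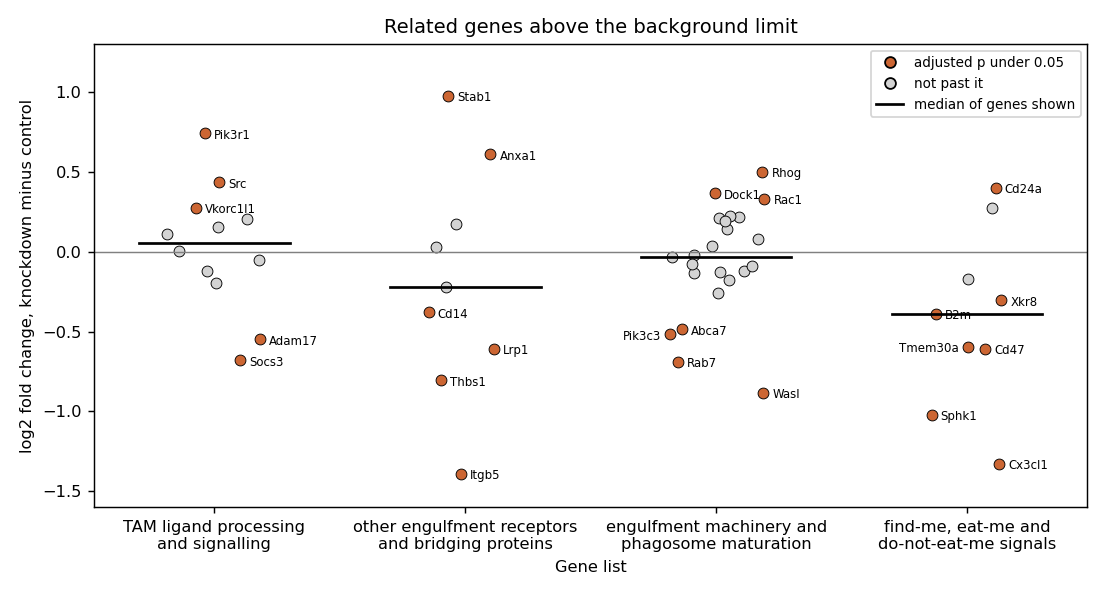
Log2 fold change of knockdown minus control for the genes of 4 lists whose mean exceeded the background limit, with orange points for an adjusted p under 0.05, grey points for the others and a black bar for the median. The medians are 0.06, -0.22, -0.03 and -0.39 from left to right, and Itgb5 and Cx3cl1 are the lowest points.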

How the data were processed

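Total RNA from 6 samples was hybridised to Illumina arrays with Cy3 label, per the labels' protocols. The authors deposited linear intensities; how they normalized them is not stated in the labels. From the values, log2 medians differed by at most 0.000288, and the lowest intensity was 85.4. Detection p-values were not used here, and the number of arrays limits the precision. Intensities were floored at 16, which altered 0 values, and log2-transformed. Every probe was fitted with limma 3.58.1 in R 4.3.3 (lmFit, eBayes) and adjusted by Benjamini-Hochberg over all 45281 probes. Of these, 34885 had 1 gene symbol, 18 several and 10378 none; 34807 matched RefSeq (GRCm38.p6), used for names and gene order. Genes are represented by their probe with the highest mean. Named genes were Glis2, all member probes, up to 4 called genes per list by smallest p, and the 5 most like Axl. The members and lists were chosen with earlier results of these data known. The fit was tested on simulated data. The alternatives were a replicate block, quantile normalization, background corrections, an offset, a filter, another eBayes setting, leaving out each array, probe means and neighbouring genes.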

Additional observations from a re-analysis of the deposited data

How the results depend on the processing

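Over 13 alternative fits, the log2 fold changes of Axl ILMN_2651715 and of Megf10 ILMN_2689931 and ILMN_2840286, which were chosen on this contrast, ranged from -3.22 to -2.98, from -4.40 to -2.86 and from -3.85 to -2.24. The number of member probes past the threshold was 4 or 3 in every fit, the difference being Scarb1. With the most frequent intensity subtracted 3437 of all probes passed in place of 7065, and 3 genes of TAM ligand processing and signalling, 3 of the other engulfment receptors and 4 of the engulfment machinery. With normexp correction these counts were 4509 of all probes, 3 for TAM ligand processing and signalling and 4 for the machinery. The cause was not tested. Same-numbered arrays of the groups deviated from their group means with correlations of -0.086, -0.0409 and -0.0495. Of the 6 arrays, 0 correlated best with their own number. No pairing by number was thus seen, but with 3 arrays per group this check cannot exclude one. A replicate block gave 6790 probes, and 3 member probes, without Scarb1. Genes near the background limit, Tyro3 and Scarb1 among the members, are limited by signal over background.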

Other observations

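Further genes of the 4 lists passed the threshold in the fit and fell outside the rule for named genes; they were chosen after their values were seen. Anxa1, annexin A1, which marks apoptotic cells for uptake, rose from 8659 to 13180 (log2 fold change 0.61, limma's adjusted p = 0.000147). Dock1 and Rac1, the exchange factor and the GTPase that drive actin in engulfment, had 0.37 and 0.33 with limma's adjusted p = 0.00835 and 0.0335. Abca7, a lipid transporter linked to phagocytosis, had -0.49, and Xkr8, a scramblase that exposes phosphatidylserine, had -0.30. Cd24a, a do-not-eat-me signal, had 0.40, while B2m, the light chain of MHC class I, which also acts as one, had -0.39. These calls depend on how background is treated. With the most frequent intensity subtracted, Anxa1, Dock1, Rac1, Abca7 and Cd24a no longer passed. After normexp correction Dock1, Rac1 and Abca7 did not pass either. Xkr8 and B2m did not both pass under either of these corrections.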
